A study of Mus musculus with 4 samples.

Results

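The Hedgehog signaling genes examined here are the 3 ligands Shh, Ihh and Dhh, the receptor Ptch1, the ligand-binding antagonist Hhip, the signal transducer Smo and the transcription factors Gli1, Gli2 and Gli3. They were taken by gene symbol, and all 9 were found among the 24771 features with an expression value, of which 22036 were annotated genes. RNA-seq was performed on 2 samples of PSC-derived SG placodes and 2 samples of E12.5 SMGs, the submandibular glands of mouse embryos, where E gives the embryonic day. The placodes were aggregates grown from the mouse embryonic stem cells of line 129w2, and were collected on day 10 of differentiation. The aggregates were started with 3000 cells per well and kept in 2% Matrigel. They received BMP4 (2 ng/ml) on day 3, RA (1 μM) together with bFGF (25 ng/ml) on day 4 and FGF10 (200 ng/ml) from day 6. No Hedgehog ligand, agonist or inhibitor is named in this protocol. Neither the mouse strain nor the dissection of the SMGs is given in the sources used here, and nothing says whether the samples of a group came from separate cultures or litters, so the p-values measure only the spread between these samples, which may be technical.

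Hedgehog ligands are secreted, lipid-modified proteins. Ptch1 holds Smo inactive until a ligand binds, and active Smo, which works in the primary cilium, lets the Gli proteins act as activators of transcription. Without ligand, Gli3 and to a lesser degree Gli2 are cut into repressors, whereas Gli1 acts as an activator. Gli1, Ptch1 and Hhip are themselves target genes, so their transcripts are commonly read as a sign of a response to the ligand, and Ptch1 and Hhip feed back by binding it. In the salivary gland Shh is known as a signal of the epithelium, and in the neural tube Shh from the notochord and floor plate sets ventral cell identities.

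Expression was given as FPKM, which scales mapped fragments by transcript length and library size, and groups were compared on log2(FPKM + 1) with limma across all 13193 features with a mean FPKM of at least 1 over the 4 samples. For low values this scale gives smaller differences than a ratio of FPKM would. Summed FPKM ranged from 361963 to 384773 per sample, and sequencing depth is unknown because no read counts could be recovered. Marker genes of several cell types differed in level between the groups. A gene was taken as detected when both samples of a group reached an FPKM of 1. All 6 markers of oral and salivary epithelium were detected in the SMGs, against 2 in the placodes (Cdh1 and Epcam), and all 6 were lower there. Cdh1 was at 1.11 and 1.18 in the placodes, just above the detection level, against 28.2 and 24.7 in the SMGs. Epcam was at 1.75 and 2.69 in the placodes, against 87.2 and 78.8. Pitx1 was at 0.539 and 0.429 in the placodes, against 245 and 253 in the SMGs. Krt5, Krt14 and Krt15 were listed at 0 in both placode samples. These 3 and Pitx1 reached the minimum only through the SMGs, so they had to differ once tested. The count of 6 lower markers is therefore a description, and 40.4% of all tested features were called lower in the placodes. The 6 neural markers were all detected in the placodes, with a summed FPKM of 724 to 756, against 75.2 to 82.4 in the SMGs. The 6 mesenchyme markers were detected in both groups, with a summed FPKM of 111 to 114 in the placodes and 924 to 933 in the SMGs. Skeletal muscle, endothelial and erythroid markers were also present in the SMGs. In bulk samples such as these, fewer cells of a type and less RNA per cell cannot be told apart.

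The 2 groups differed in the levels of the pathway genes, although Smo was the most abundant member in both. In the placodes, Ptch1 was 5.56-fold higher than in the SMGs, the antagonist Hhip was 6.12-fold higher, Gli1 was 1.73-fold higher and Shh was present where the SMGs had almost none. In the SMGs, Smo was 2.23-fold, Gli2 1.48-fold and Gli3 1.20-fold higher, and the small amount of ligand transcript was mainly Dhh. These are ratios of mean FPKM of 2 samples each. All 6 members that reached a mean FPKM of 1 (Shh, Ptch1, Smo, Gli1, Gli2 and Gli3) passed the adjusted threshold of 0.05, 3 in each direction. Shh reached that mean only through the placodes and was at or near 0 in the SMGs, so it had to differ once tested, and the count is given as a description. The same threshold was passed by 76.2% of all tested features (35.7% higher and 40.4% lower in the placodes), so being called is common in this comparison. The groups were also separate, with no overlap of samples, for all 9 members, against 63.7% of all listed features, and for the 6 tested members, against 88.4% of all tested features.

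**Figure D1:**
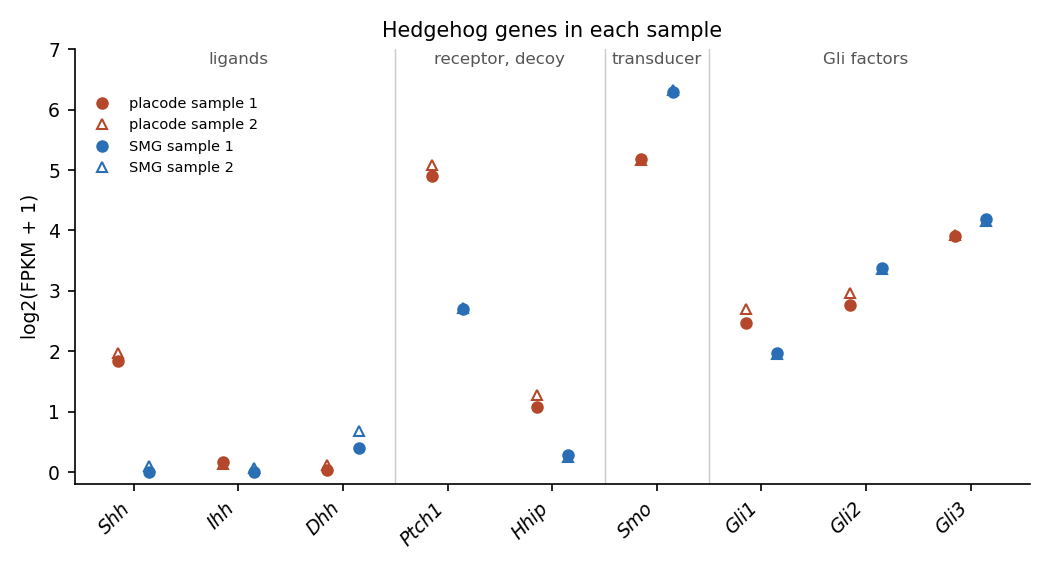
Expression of the 9 Hedgehog genes as log2(FPKM + 1) in each of the 4 samples, with placode samples in red and SMG samples in blue (circle, sample 1; triangle, sample 2). Shh, Ihh, Ptch1, Hhip and Gli1 lie higher in both placode samples, and Dhh, Smo, Gli2 and Gli3 lie higher in both SMG samples.

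Of the ligands, Shh, the one that patterns the neural tube and many epithelia, was the most abundant in the placodes. Shh (ENSMUSG00000002633) spans 28456815 to 28467256 of chromosome 5 (GRCm38). The FPKM of Shh was 2.59 and 2.92 in samples 1 and 2 of the placodes, and 0 and 0.0735 in samples 1 and 2 of the SMGs. Both placode samples were therefore above both SMG samples, and the transcript was near the bottom of the scale in the glands. The 6 epithelial markers summed to an FPKM of 556 and 540 in SMG samples 1 and 2, of which Pitx1 gave 245 and 253. The part of epithelium in the Shh values was not tested. The log2 difference was 1.86 (standard error 0.12, limma adjusted p = 2.35e-05). Because the SMG values are at or near 0, this size depends on the pseudocount, and it was 4.43 at a pseudocount of 0.1. In the annotation, 28.3% of the exonic bases of Shh are shared with 2 noncoding genes on the opposite strand. The counting is not stated to use strand, so reads of Shh and of these genes cannot be told apart.

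Dhh, the ligand of Schwann cells and of the testis, had the opposite pattern at a low level. Its FPKM was 0.0225 and 0.0785 in the aggregates and 0.319 and 0.595 in the glands, which do not overlap. Its mean FPKM was below 1, so it was not tested, and without that minimum the limma adjusted p was 0.0873. In the annotation 25.2% of its exonic bases are shared with other genes, among them Rhebl1 on the same strand, which was higher in the placodes (4.60 and 4.39) than in the SMGs (3.05 and 2.54). All 5 markers of Schwann cell precursors were detected in the SMGs, with a summed FPKM of 36.6 to 39.6 against 7.43 to 8.64 in the placodes, where 3 of them were detected. One of the 5, Foxd3, went the other way, with 4.40 and 3.56 in the placodes and 2.99 and 3.15 in the SMGs (log2 difference 0.29, limma adjusted p = 0.0640), and was named after its values were seen. The part of these cells in the Dhh values was not tested.

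Ihh, the ligand of growing cartilage and of the gut, was the lowest of the 3 ligands in the SMGs, at 0 and 0.0492, and stayed below 0.2 FPKM in the placodes, at 0.126 and 0.0987. It was not tested, and without the minimum its limma adjusted p was 0.0992. Thus, Shh made up 94.6% and 94.3% of the summed ligand FPKM in the placode samples, whereas Dhh made up all of it in SMG sample 1 and 82.9% in SMG sample 2. The summed ligand FPKM itself was 2.92 ± 0.250 in the placodes, compared with 0.518 ± 0.282 in the SMGs (SD, n = 2 each).

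Ptch1 (ENSMUSG00000021466, chromosome 13 of GRCm38, 63508328 to 63573598), the ligand receptor, had the largest log2 difference of the members at the pseudocount of 1. Its FPKM was 29.0 and 32.7 in the aggregates and 5.51 and 5.59 in the glands. Any pairing of a placode with an SMG sample gave a ratio between 5.19 and 5.94. The log2 difference was 2.28 (standard error 0.08, limma adjusted p = 1.71e-06). In the placodes Ptch1 ranked above 90.0% of all listed features by mean FPKM, and in the SMGs above 63.6%.

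Hhip (ENSMUSG00000064325, chromosome 8 of GRCm38, 79965851 to 80058006), which binds Hedgehog ligands at the membrane and keeps them from Ptch1, differed by a similar ratio at a much lower level. Its FPKM was 1.10 and 1.43 in the aggregates and 0.219 and 0.195 in the glands, with ratios of 5.02 to 7.35 between samples. Its mean FPKM over the 4 samples was 0.736, so it was not tested in the main comparison. Without the minimum, where 41.3% of 24771 features passed, the log2 difference was 0.90 (standard error 0.09, limma adjusted p = 0.0152). The ratio of Ptch1 to Hhip FPKM was 26.4 and 22.9 in the aggregates and 25.2 and 28.8 in the glands, so these values overlapped between the groups although both genes were several-fold apart.

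The upstream bases of these feedback genes are shown because both stood higher in the placodes, together with those of Gli2, whose stretch was the only one among the members to hold the core of the Gli site. The windows are the 250 bases before a RefSeq transcript start on GRCm38.p6, read 5′ to 3′ on the strand of the gene, all of them the minus strand. Windows were found for 7 of the 9 members, and the other two are Shh and Gli1. The Ptch1 window is at chr13:63565736-63565985 and its start lies 7863 bases inside the gene as annotated in GENCODE, so it belongs to an internal start. The Hhip window is at chr8:80058009-80058258 and the Gli2 window at chr1:119053620-119053869. Capitals mark the core.
Ptch1: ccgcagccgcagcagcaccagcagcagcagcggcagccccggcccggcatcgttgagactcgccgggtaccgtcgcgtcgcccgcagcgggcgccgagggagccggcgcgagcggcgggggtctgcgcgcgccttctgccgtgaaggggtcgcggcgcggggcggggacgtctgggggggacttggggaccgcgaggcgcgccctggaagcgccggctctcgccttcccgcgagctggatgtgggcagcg
Hhip: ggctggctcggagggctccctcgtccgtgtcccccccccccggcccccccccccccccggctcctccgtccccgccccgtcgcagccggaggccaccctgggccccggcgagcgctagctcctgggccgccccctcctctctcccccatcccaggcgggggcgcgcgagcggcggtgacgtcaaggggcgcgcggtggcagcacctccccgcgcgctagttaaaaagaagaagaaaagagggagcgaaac
Gli2: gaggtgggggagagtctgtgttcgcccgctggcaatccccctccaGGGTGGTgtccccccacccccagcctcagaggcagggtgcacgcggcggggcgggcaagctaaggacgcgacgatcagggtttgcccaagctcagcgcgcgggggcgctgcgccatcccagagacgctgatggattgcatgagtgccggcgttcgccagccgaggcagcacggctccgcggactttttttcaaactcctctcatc

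The search covered both strands for the consensus Gli site, GACCACCCA, and for its inner 7 letters, ACCACCC, which lie within the consensus. The 9-letter site was in 0 of the 7 member windows and in 0.225% of 32851 windows of the same length. The core was in the Gli2 window, in reverse orientation at position -205 from the start, and in 3.92% of all windows. The Ptch1 window had 78.4% G and C with 41 CpG dinucleotides, the Hhip window 76.0% with 28 and the Gli2 window 67.2% with 22, against medians of 52.4% and 6 over all windows. A match is only a run of letters, and windows without one hold no such run in these 250 bases.

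Smo (ENSMUSG00000001761, chromosome 6 of GRCm38, 29735503 to 29761365), the membrane protein that passes the signal on, was the most abundant member in both groups. Its FPKM was 35.1 and 35.0 in the aggregates and 77.1 and 79.3 in the glands, so the glands held about the same level in both samples and the placodes less. The log2 difference was -1.13 (standard error 0.05, limma adjusted p = 3.46e-06). As Smo fell and Ptch1 rose in the placodes, the ratio of Ptch1 to Smo FPKM was 0.826 and 0.934 there, against 0.0714 and 0.0706 in the SMGs. Smo was thus 14.1 ± 0.123-fold (SD, n = 2) as abundant as its inhibitor in the glands and 1.14 ± 0.0986-fold (SD, n = 2) in the placodes. The mesenchyme markers that were lower in the placodes moved in the same direction as Smo, and their part in its difference was not tested.

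The Gli factors differed less than Ptch1 and Smo. Gli1 (ENSMUSG00000025407, chromosome 10 of GRCm38, 127329882 to 127341974), the activator that is also a target gene, had an FPKM of 4.51 and 5.53 in the aggregates and 2.91 and 2.89 in the glands. Both placode samples were higher, by a log2 difference of 0.62 (standard error 0.11, limma adjusted p = 2.95e-03). In the annotation, 6.55% of its exonic bases are shared with 2 genes on the other strand. One of them, Arhgap9, was lower in the placodes (0.194 and 0.381) than in the SMGs (1.20 and 0.939).

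Gli2 (ENSMUSG00000048402, chromosome 1 of GRCm38, 118834132 to 119053619), which serves mainly as the activator that first responds to ligand, was at 5.84 and 6.77 in the aggregates and 9.39 and 9.33 in the glands. Its log2 difference was -0.51 (standard error 0.09, limma adjusted p = 2.66e-03). Gli3 (ENSMUSG00000021318, chromosome 13 of GRCm38, 15463235 to 15730026), the main source of repressor, was at 14.0 and 14.3 in the aggregates and 17.2 and 16.7 in the glands. Its log2 difference of -0.25 (standard error 0.06, limma adjusted p = 9.08e-03) was the smallest among the tested members, and its adjusted p was 0.0549 without placode sample 1. The median log2 difference of all tested features was -0.05.

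Gli3 was the most abundant Gli transcript in all 4 samples. It made up 57.5% and 53.7% of the summed Gli FPKM in the aggregates and 58.4% and 57.8% in the glands. Gli1 made up 18.5% and 20.8% in the placodes, against 9.86% and 9.99% in the glands, and Gli2 24.0% and 25.5% against 31.8% and 32.2%. Hence the share of Gli1 was higher in both placode samples and that of Gli2 lower. The FPKM of Gli3 was 2.84 ± 0.369 times that of Gli1 in the placodes and 5.85 ± 0.0937 times in the SMGs (SD, n = 2). These shares and ratios are given as values and were not tested.

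**Figure D2:**
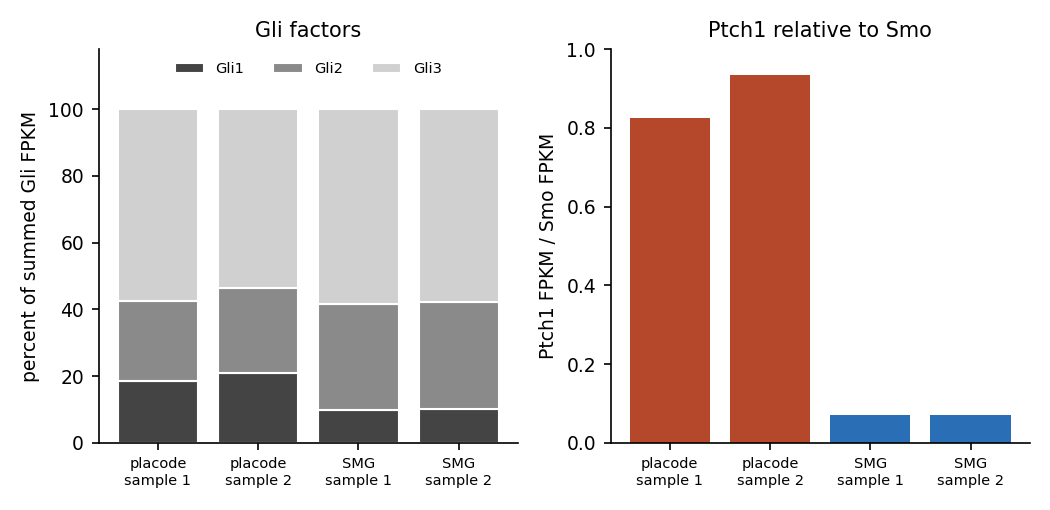
Left, the share of each Gli factor in the summed FPKM of Gli1, Gli2 and Gli3 in each sample, in percent. Right, the FPKM of Ptch1 divided by that of Smo in each sample, which was 0.826 and 0.934 in the aggregates and 0.0714 and 0.0706 in the glands.

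The order of the members by mean FPKM also differed. In the placodes it ran Smo, Ptch1, Gli3, Gli2, Gli1, Shh, Hhip, Ihh and Dhh, and the values of neighbours did not overlap at any step. Smo and Ptch1 were the closest of the abundant members there, at 35.0 to 35.1 and 29.0 to 32.7. In the SMGs the order was Smo, Gli3, Gli2, Ptch1, Gli1, Dhh, Hhip, Shh and Ihh, and the values overlapped only between Shh and Ihh, which are both at or near 0. Ptch1 therefore stood above all Gli factors in the placodes and below Gli2 and Gli3 in the glands.

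**Figure D3:**
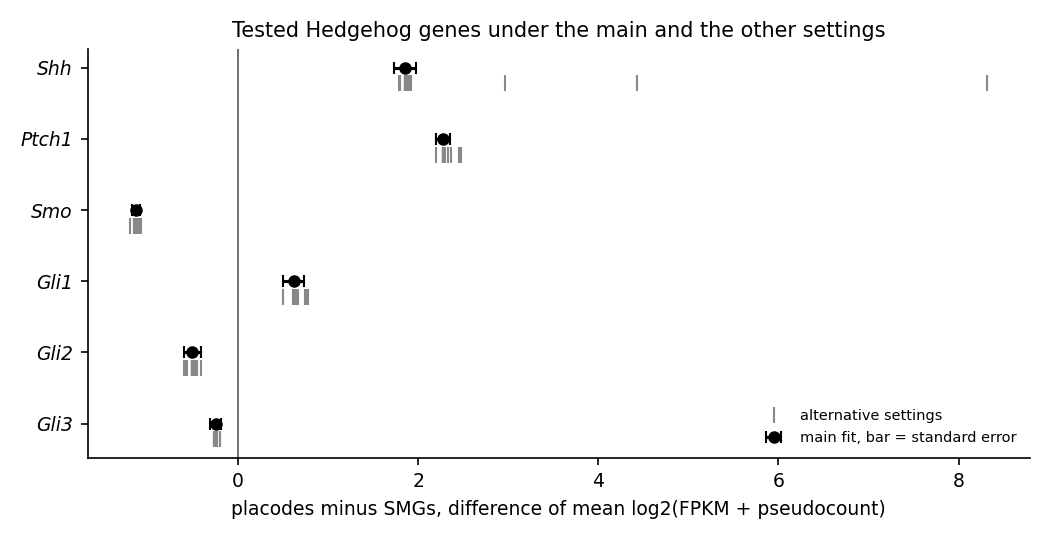
Difference of mean log2(FPKM + pseudocount), placodes minus SMGs, for the 6 tested Hedgehog genes. Black points show the main comparison with its standard error, and grey ticks show the other settings, under which no gene changed direction. The 3 ticks of Shh at 2.97, 4.43 and 8.32 are TPM scaling and pseudocounts of 0.1 and 0.001.

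The genes whose expression over the 4 samples was nearest to that of Shh, by Euclidean distance on log2(FPKM + 1), were Prl4a1, Kcnj10 and Gpr50, at distances of 0.116 to 0.128. For Ptch1 they were Asphd2, Fbxl16 and Fsd1 (0.154 to 0.191), and for Gli1 Samd5, P4htm and Scn8a (0.111 to 0.156). With 4 samples in 2 groups, such likeness reflects little beyond the 2 group levels.

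Lists of other pathway genes were then described by their counts. Of 50 genes of ligand release, co-reception, transduction and the primary cilium, 49 were tested, of which 14 rose, 24 fell and 11 did not pass the adjusted threshold. Only 2 rose and 9 fell by at least 2-fold, and the median log2 difference was -0.21, against -0.05 over all tested features. In this comparison 76.2% of all tested features were called, 35.7% higher and 40.4% lower in the placodes, and 29.4% were called with at least a 2-fold difference. The counts of the single lists below are descriptions to be read beside these shares.

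Among the 5 genes of ligand modification and release, 1 rose, 3 fell and 1 (Scube3, named after its values were seen) did not pass. Scube2, a secreted protein that helps free the ligand from the producing cell, had an FPKM of 4.94 and 5.31 in the aggregates and 0.243 and 0.135 in the glands (log2 difference 2.37, limma adjusted p = 6.70e-06). Scube2 was the 1 that rose, and it reached the minimum only through the placodes, so it had to differ once tested. Scube1, a relative of Scube2, had the opposite pattern, at 22.9 and 25.5 in the placodes and 91.3 and 102.8 in the SMGs (log2 difference -1.96). Hhat, the enzyme that adds palmitate to the ligands, and Disp1, the transporter that exports them, fell by 0.79 and 0.33 on the log2 scale.

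Of the co-receptors and other ligand-binding surface proteins, 4 of 5 were tested, of which 1 rose and 3 fell. Boc rose, from 19.8 and 19.7 in the SMGs to 36.3 and 35.5 in the placodes (log2 difference 0.83, limma adjusted p = 1.86e-05). Its relative Cdon, likewise a co-receptor of Ptch1, fell from 36.1 and 35.7 to 7.10 and 8.75 (log2 difference -2.05, limma adjusted p = 5.94e-06). Gas1, a membrane-anchored co-receptor, fell by 0.93 on the log2 scale. Gpc3, a glypican that competes with Ptch1 for ligand, had an FPKM of 452 and 454 in the glands and 61.9 and 62.5 in the aggregates (log2 difference -2.85, limma adjusted p = 1.94e-07).

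Of the 20 genes acting between Smo and the Gli factors, 8 rose, 8 fell and 4 did not pass, with a median log2 difference of -0.02. Gsk3b, a kinase that marks Gli proteins for processing, had the largest rise (log2 difference 1.43, limma adjusted p = 1.84e-06), followed by Gpr161, a ciliary receptor that restrains the pathway, with 0.63 (limma adjusted p = 2.43e-03). Evc and Evc2, partner proteins that pass the signal of Smo on at the base of the cilium, had the largest falls, of 1.80 and 1.41 on the log2 scale. Evc was at 3.46 and 4.00 in the aggregates and 16.6 and 14.3 in the glands.

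Of 21 cilium genes, 20 were found in the table and tested, and Tctn2 was not analysed here. Of these, 4 rose, 10 fell and 6 did not pass. The kinesin motor subunits Kif3a and Kif3b, which drive transport into the cilium, rose by 0.98 and 0.72 on the log2 scale. Tulp3, an adaptor that brings membrane receptors such as Gpr161 into the cilium, fell from 34.8 and 33.5 in the SMGs to 7.38 and 7.74 in the placodes (log2 difference -2.04, limma adjusted p = 1.05e-06). Ift88, a component of the transport particles, fell by 1.10 on the log2 scale.

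**Figure D4:**
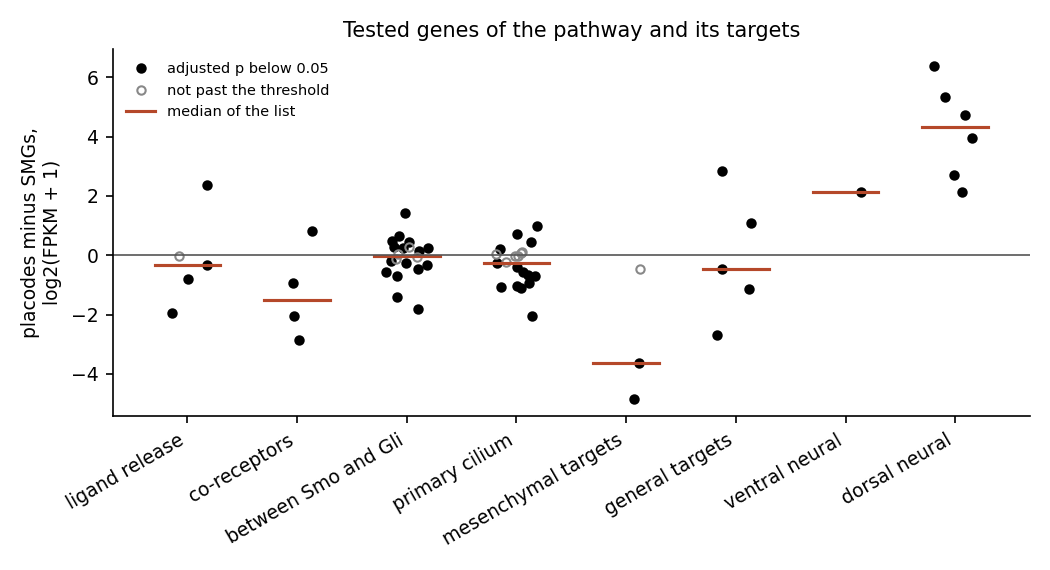
Difference of mean log2(FPKM + 1), placodes minus SMGs, of the tested genes in 8 lists of pathway and target genes. Filled points have a limma adjusted p below 0.05, open points do not, and red lines are list medians. The dorsal neural genes all lie above 0, and the lists of the transduction machinery lie on both sides of it.

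Genes known to respond to Hedgehog in several tissues were divided, with 2 of 5 higher and 3 lower. Mycn, a driver of progenitor proliferation, had an FPKM of 32.1 and 31.1 in the aggregates and 3.30 and 3.77 in the glands (log2 difference 2.85, limma adjusted p = 8.06e-07). Hsd11b2, a glucocorticoid-inactivating enzyme, rose by 1.09 on the log2 scale. Ccnd2, a cyclin of the G1 phase, and Bcl2, an inhibitor of apoptosis, fell by 1.13 and 2.68. Bcl2 was at 1.23 and 1.03 in the placodes and 12.3 and 12.8 in the SMGs.

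The targets in face and gut mesenchyme were mostly low, and 3 of 7 were tested. Osr1 and Osr2, transcription factors of the palate and jaw mesenchyme, fell from 107 and 117 to 3.14 and 2.64 (log2 difference -4.86, limma adjusted p = 2.09e-07) and from 27.7 and 32.3 to 1.18 and 1.87 (log2 difference -3.63, limma adjusted p = 3.67e-06). Foxf1, a forkhead factor of gut and face mesenchyme, had a log2 difference of -0.46 (limma adjusted p = 0.0646), with 0.492 and 0.876 in the placodes and 0.994 and 1.64 in the SMGs. The forkhead genes Foxf2, Foxd1, Foxd2 and Foxl1 were not tested and did not exceed 1.1 FPKM in any sample. Foxf2 was at 0.236 and 0.174 in the placodes and 1.06 and 0.413 in the SMGs. Foxl1 was at 0.221 and 0.389 against 0.545 and 0.690. Foxd1 had an FPKM of 0.515 and 0.585 in the placodes, between its SMG values of 0.910 and 0.224. Foxd2 was the only one of the 7 with both placode samples (0.972 and 0.952) above both SMG samples (0.549 and 0.0361). For 5 of the 7, both placode samples were below both SMG samples, and 63.7% of all listed features had no overlap. All 6 mesenchyme markers were lower in the placodes, as were Osr1 and Osr2, and the part of mesenchyme in these values was not tested.

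In the neural tube, where Shh acts as a graded signal, the list of genes induced by it and the list of genes restricted by it stood at different levels in the placodes. Of the 7 genes of the floor plate and ventral progenitors, 4 (Foxa2, Nkx6-1, Nkx6-2 and Olig2) were detected in the placodes and 0 in the SMGs, and none exceeded 4 FPKM. Nkx6-1, which marks the ventral progenitor domains, was the only one tested, with 2.95 and 3.84 in the aggregates and 0 in both SMG samples (log2 difference 2.13, limma adjusted p = 2.38e-05). It reached the minimum only through the placodes, so it had to differ once tested. Foxa2, which marks the floor plate, was at 1.32 and 1.98 in the placodes and 0.0296 and 0 in the SMGs. Olig2, a factor of motor neuron progenitors, was at 1.13 and 1.96 in the placodes and listed at 0 in both SMG samples. Nkx6-2 was at 1.53 and 1.87 against 0.00386 and 0. Nkx2-2, Nkx2-9 and Olig1 stayed below 0.2 FPKM in every sample. The summed FPKM of the list was 7.32 and 10.0 in the placodes.

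The 6 genes restricted by Shh to intermediate and dorsal progenitors were all tested and all rose, with a median log2 difference of 4.33. Pax3, Pax6, Dbx1 and Dbx2 reached the minimum only through the placodes, so this count is a description. Their summed FPKM was 249 and 247 in the aggregates against 4.49 and 3.76 in the glands. Dbx1, which marks progenitors in the middle of the neural tube, was the highest, at 103 and 97.9 in the aggregates and 0.126 and 0.312 in the glands (log2 difference 6.38, limma adjusted p = 1.59e-07). Irx3 was at 65.5 and 66.9 against 1.54 and 1.56, and Pax6, a broad progenitor factor, at 40.7 and 42.2 against values below 0.2. Pax3 and Pax7, factors of the dorsal neural tube, were at 20.3 and 20.5 and at 12.7 and 11.5 in the placodes. Dbx2 was the lowest of the list, at 6.87 and 7.85 against 1.15 and 0.649. All 6 neural markers rose as well, by a median log2 difference of 3.44, and 35.7% of all tested features were called higher in the placodes. Sox1 and Hes5 among these markers reached the minimum only through the placodes, so that count is also a description. The part of neural cells in the values of the 6 restricted genes was not tested.

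**Figure D5:**
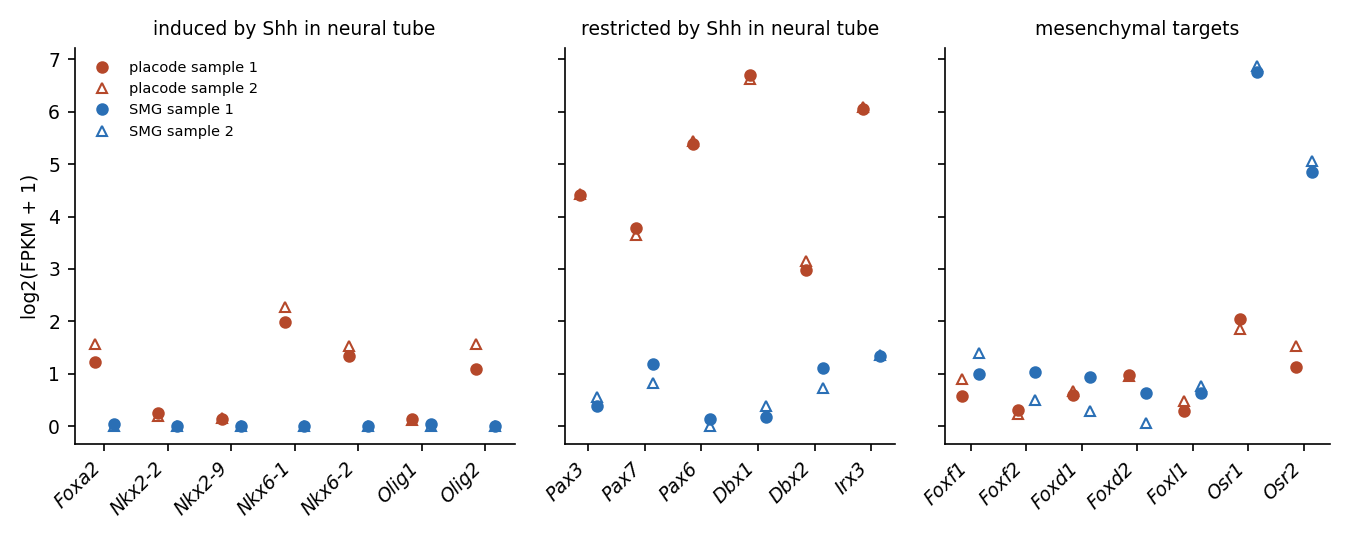
Expression as log2(FPKM + 1) in each sample of genes that Shh induces in the neural tube (left), genes that it restricts there (middle) and target genes of the mesenchyme (right). Placode samples are red and SMG samples blue (circle, sample 1; triangle, sample 2). The middle genes are higher in the placodes, and Osr1 and Osr2 are higher in the SMGs.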

How the data were processed

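Total RNA of 2 samples of PSC-derived SG placodes and 2 samples of E12.5 SMGs was sequenced by the authors as paired-end reads, which they mapped with HISAT2. The submitters' processing notes name GRCm38 and also GRCh38, a human build, whereas the paper names the mouse reference genome for mapping. The deposited values are FPKM per feature. The version of HISAT2, the annotation and the program behind the FPKM are not given in the sources used here. Low values showed no steps of whole reads, so depth is unknown. The values were transformed as log2(FPKM + 1), and 13193 features with a mean FPKM of 1 or more entered the test in limma 3.58.1 (R 4.3.3, eBayes with trend, group as the only term, two-sided, Benjamini-Hochberg adjustment). The fit was also run on simulated data with far fewer changed features than were called here, so that run does not bear on the share called. Gene coordinates are from GENCODE M21 (GRCm38), where all 9 members matched by identifier, and upstream sequences are from RefSeq (GRCm38.p6). The members and lists were chosen with earlier results of these data known. A pair of list genes is not reported here and was left out of the counts. In the other lists, the genes named were, among those called, the top 2 and bottom 2 by log2 difference, and also every gene of the mesenchymal, ventral and dorsal lists. A log2 difference is the placode mean minus the SMG mean. Alternatives changed 1 choice at a time: the pseudocount, the scaling of samples, the minimum, the replicate block, the variance model, the assembled loci, the detection level and each sample left out.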

Additional observations from a re-analysis of the deposited data

How the results depend on the processing

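The 6 tested members had 94 values under the alternatives, 15 of them of Shh. As Shh was at or near 0 in the SMGs, its direction could not change. Of all 94 values, 93 kept their direction and their side of the threshold. The exception was Gli3, whose log2 difference of -0.24 had a limma adjusted p of 0.0549 without placode sample 1. The differences of Ptch1 ranged from 2.20 to 2.47, of Smo from -1.19 to -1.08, of Gli1 from 0.50 to 0.78, of Gli2 from -0.60 to -0.41 and of Shh from 1.79 to 8.32, the last at a pseudocount of 0.001. With a minimum mean FPKM of 5, where Shh and Gli1 were not tested, 1 member was called higher in place of 3. Without a minimum, where Hhip, Ihh and Dhh were tested too, 4 were, the fourth being Hhip (log2 difference 0.90, limma adjusted p = 0.0152). Of the other pathway and target genes, 25 were then called higher and 24 lower. Hhat, Disp1 and Gpr161 no longer passed, with a limma adjusted p of 0.0544, 0.0633 and 0.0604. At a detection level of 5 FPKM, 4 members in place of 7 were detected in the placodes. With single samples left out, 3 members were called higher and 2 to 3 lower, and of the other pathway and target genes 17 to 21 higher (23 with all samples) and 24 to 27 lower (29 with all samples). Under the replicate block, 3 members rose and 3 fell, as without it. The samples share only a number (correlation of the deviations of same-numbered samples -0.0348). Unknown depth limits what can be said of Ihh, Dhh and Hhip and of values at 0.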
